A study of Mus musculus with 21 samples.

Results

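The genes described here are 10 genes typical of the choroid plexus, out of the 24411 genes listed in each of 2 expression tables from mouse hippocampus. They are Ttr, Kl (klotho), Folr1, Clic6, Kcne2, Slc4a5, F5, Aqp1, Sostdc1 and Otx2, chosen by name as genes that choroid plexus epithelium is known to express, and all 10 were found in both tables. The tissue was the hippocampus of 1 hemisphere from perfused male WT mice, and its polyA RNA was sequenced in strand-specific libraries. In the transfer experiment, B6.SJL-Ptprca Pepcb/BoyJ recipients aged 4 months received CD8+ T cells by tail vein from aged C57BL/6J donors of 22 to 28 months (aged T, n = 5) or from young C57BL/6J donors of 3 to 4 months (young T, n = 6). All 11 recipients had first been given an antibody to CD8a on days -11 and -7, so both groups share that depletion, and the donor cells came from spleen and blood. The depletion experiment used mice of 22 to 24 months, injected every 4 days with an antibody to CD8a (CD8a antibody, n = 5) or with a rat IgG2b isotype control (IgG2b, n = 5). The labels name each library as a separate sample and say no more about replication, so p-values measure the spread between these samples.

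The choroid plexus is a folded, vascular tissue that hangs in the brain ventricles, and its epithelium secretes most of the cerebrospinal fluid. Its cells pump ions and water from blood to fluid, release carrier proteins and hormones into the fluid, and pass on vitamins such as folate. It is not a part of the hippocampus, but in the lateral ventricle it lies along the hippocampal surface. The klotho protein is made in the choroid plexus and in the kidney, where it acts as a co-receptor for the hormone FGF23, and a shed form circulates in blood and cerebrospinal fluid. In bulk tissue, fewer choroid plexus cells and less RNA per cell cannot be told apart. Bulk values also do not show which cells the Kl reads came from, and a source outside the choroid plexus was not tested.

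By annotation of the mouse genome (GRCm38, GENCODE vM21), Kl is on chromosome 5 at 150952607 to 150993817, and Ttr is on chromosome 18 at 20665280 to 20674321, both on the plus strand. The others lie on chromosomes 1 (F5), 6 (Slc4a5 and Aqp1), 7 (Folr1), 12 (Sostdc1), 14 (Otx2) and 16 (Clic6 and Kcne2). Exons of F5 overlap an antisense gene, Gm16548. Exons of Otx2 overlap Gm49154 on the same strand and Otx2os1 on the opposite strand. How the authors' counting split such overlaps is not given in the sources used here, so the values of F5 and Otx2 carry that uncertainty.

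Depth was 12361933 to 15055422 reads per aged T library and 11232442 to 14911138 per young T library. Per CD8a antibody library it was 9957822 to 12136146 reads, and per IgG2b library 11103024 to 14375029. A single library stood apart over all tested genes: CD8a antibody replicate 5 had a first principal component of 57.3 in the depletion experiment (24.6% of the variance), while the other 9 lay between -28.2 and 6.90. Markers of the labelled tissue were present, with 8 of 8 hippocampal neuron genes tested in both experiments. T cell transcripts were near 0: Cd8a had 0 reads in all aged T libraries together and 1 in young T libraries, and 14 reads over the CD8a antibody libraries, against 10 over those with IgG2b.

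Choroid plexus transcripts were present in every library, and their amount differed between mice of the same group more than between groups. Ttr encodes transthyretin, which the choroid plexus secretes to carry thyroid hormone and the retinol-binding protein in cerebrospinal fluid. It had 48127, 19713, 1996, 1585 and 50625 normalized counts (reads divided by a size factor per library) in aged T replicates 1 to 5. In young T libraries it had 2183 at the lowest, a median of 8496 and 31162 at the highest. The aged T values covered the whole range of the young T values, with 3 libraries at 19713 or more and 2 below the lowest young T library. Ttr took 0.0113 to 0.371% of a library's reads in aged T libraries and 0.0161 to 0.223% in young T libraries. Its rank by normalized count ran from 4 to 2083 among all genes in aged T libraries, and from 19 to 1434 in young T libraries.

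Kl varied less, but in the same libraries. Its normalized counts were 1786, 973, 344, 466 and 1209 in aged T replicates 1 to 5, and in young T libraries they ran from 440 to 1444 with a median of 683. Aged T replicates 3 and 4 were the lowest 2 of their group for both genes, and young T replicate 6 was the lowest young T library for both. Over all 11 libraries the highest value of Kl was 5.19 times the lowest, against 31.9 times for Ttr. Per kilobase of exon sequence, which allows genes to be compared, Ttr averaged 20581 ± 20197 normalized counts in aged T libraries and 10247 ± 9223 in young T libraries (SD, n = 5 and 6). Kl averaged 102 ± 62.7 per kilobase in aged T libraries and 80.9 ± 38.9 in young T libraries. Means of the other 8 genes per kilobase ran from 21.3 (Otx2) to 125 (Clic6) in aged T libraries and from 14.3 (Otx2) to 70.9 (Clic6) in young T libraries. Ttr was the most abundant of the 10 in both groups.

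The proteins that move ions and water across the epithelium showed the same split. Kcne2, an accessory subunit of potassium channels, had 299, 135, 27.0, 14.2 and 289 normalized counts in aged T replicates 1 to 5, and 12.8, 45.3 and 230.2 as the lowest, median and highest in young T libraries. Slc4a5, a sodium bicarbonate cotransporter, had 332, 187, 19.1, 14.2 and 176 in aged T libraries, and 18.2, 43.7 and 278 as the lowest, median and highest in young T libraries. Aqp1, the water channel of the epithelium's ventricular face, had 398, 189, 13.5, 18.3 and 265 in aged T libraries, and 14.6, 74.0 and 320.5 as the lowest, median and highest in young T libraries. For each of these transport genes, aged T replicates 1, 2 and 5 stood above the young T median and replicates 3 and 4 below it, and the groups overlapped. Clic6, of the chloride intracellular channel family, ran from 70.9 to 1078 in aged T libraries and from 130.4 to 593 in young T libraries.

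Among the remaining genes, Folr1 encodes the folate receptor that carries folate into cerebrospinal fluid, and it ran from 16.9 to 353 normalized counts in aged T libraries and from 17.3 to 195 in young T libraries. F5, coagulation factor V, ran from 25.4 to 426 in aged T libraries and from 60.2 to 404 in young T libraries. Sostdc1, a secreted antagonist of BMP and Wnt signals, ran from 43.6 to 332 in aged T libraries and from 40.1 to 305 in young T libraries. Otx2 is the homeodomain transcription factor on which choroid plexus formation depends. It had 151, 133, 30.4, 8.11 and 128 normalized counts in aged T replicates 1 to 5, and 22.8, 49.5 and 125 as the lowest, median and highest in young T libraries.

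**Figure D1:**
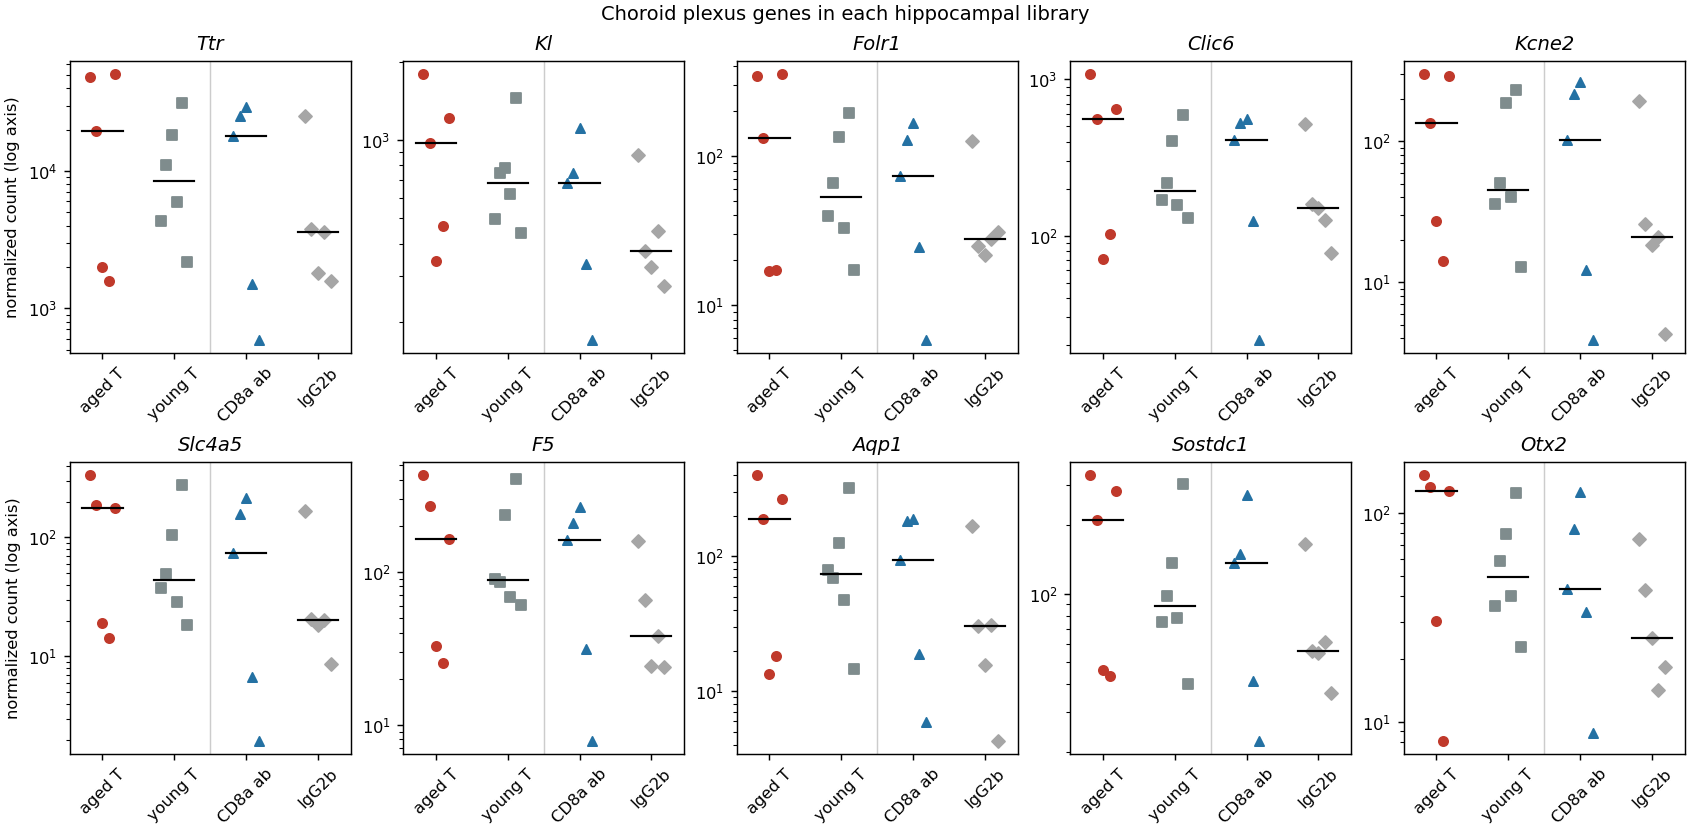
Normalized count (log axis) of each of the 10 genes in each library of the 4 groups, with a bar at the group median. Each point is a library; in every panel the groups overlap, and CD8a antibody replicates 1 to 3 and IgG2b replicate 1 stand above the other depletion libraries.

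No choroid plexus gene passed the test in the transfer experiment. limma's fit over 14162 genes called 0 of the 10 at an adjusted p under 0.05, where it called 0% of all genes, and 0 of the 10 at an unadjusted p under 0.05, where it called 8.25%. None of the 10 had groups that did not overlap, against 0.699% of all genes. The log2 difference, aged T minus young T, was 0.37 for Ttr (95% interval -1.56 to 2.30) and 0.21 for Kl (-0.59 to 1.01). Differences of the other 8 lay between -0.13 (F5) and 0.57 (Folr1). Of the 10, 9 lay above 0, where 49% of all genes did, with a median of 0.38 against -0.0045 over all genes. The median was reached or passed by 4.02% of all genes. That share takes no account of spread, and the median SD within groups was 1.58 log2 units for the 10 against 0.22 over all tested genes. It is therefore a description and no measure of evidence. edgeR and DESeq2 also called 0 of the 10 at an adjusted or an unadjusted p under 0.05, where 8.88% and 8.07% of all genes had an unadjusted p under 0.05. The smallest adjusted p was 0.844 with limma, 0.819 with DESeq2 and 0.630 with edgeR. Intervals were 1.60 to 3.86 log2 units wide, and for 7 of the 10 genes they reached past 1 log2 unit in both directions. The median depended on single libraries: it was -0.072 with 3 of 10 genes above 0 when aged T replicate 1 was left out, 0.064 without aged T replicate 5, 0.096 without young T replicate 6, 0.91 without aged T replicate 3 and 0.83 without aged T replicate 4. It was 0.17 without aged T replicate 2 and 0.71 without young T replicate 5. Fitted to whole reads, it was 0.73 with edgeR and 0.71 with DESeq2, with 10 of 10 above 0.

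In the aged mice of the depletion experiment, choroid plexus transcripts fell into a high and a low set of libraries. Ttr had 18119, 25071, 29397, 1498 and 591 normalized counts in CD8a antibody replicates 1 to 5, against 25019.8, 3785, 1801, 3603 and 1580.1 in IgG2b replicates 1 to 5. Of the 10 libraries, 3 antibody libraries and 1 IgG2b library were at 18119 or more, and the next lower library was 4.79 times lower. Kl had 684, 747, 1109, 333 and 172 with the CD8a antibody, against 874, 374, 327, 447 and 275 with IgG2b. The same 4 libraries, CD8a antibody replicates 1, 2 and 3 and IgG2b replicate 1, were the highest 4 of 10 for every one of the 10 genes. The gap below them was smallest for Otx2, at 1.01 times. Ttr took 0.00497 to 0.250% of reads in CD8a antibody libraries and 0.0133 to 0.212% in IgG2b libraries. Per kilobase of exon sequence, Ttr averaged 12593 ± 11220.1 normalized counts with the CD8a antibody and 6035 ± 8462 with IgG2b, and Kl 65.3 ± 39.5 with the CD8a antibody and 49.2 ± 25.8 with IgG2b (SD, n = 5 each).

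Slc4a5 and Kcne2 had the widest range in the depletion experiment, the highest library at 110 and 67.4 times the lowest. Kcne2 had 103, 216, 264, 12.3 and 3.92 normalized counts with the CD8a antibody, against 193, 26.02, 18.2, 20.96 and 4.29 with IgG2b. Aqp1 had 93.4, 183, 189, 19.0 and 5.88 with the CD8a antibody, against 167, 30.7, 15.6, 31.0 and 4.29 with IgG2b. Slc4a5 had 74.3, 157, 216, 6.70 and 1.96 with the CD8a antibody, against 166, 20.4, 18.2, 20.1 and 8.59 with IgG2b. For each, antibody replicates 1 to 3 were high and replicates 4 and 5 low, while IgG2b replicate 1 alone was high in its group. The lowest Slc4a5 value rested on 2 reads and the lowest Kcne2 and Aqp1 values on 4 reads each, so their ratios carry a large counting error. Otx2 had 43.1, 83.6, 126, 33.5 and 8.82 with the CD8a antibody, against 75.1, 42.7, 25.2, 14.3 and 18.2 with IgG2b. Folr1 ran from 5.88 to 167 in CD8a antibody libraries and from 21.7 to 127 in IgG2b libraries. Clic6 ran from 21.6 to 554 in CD8a antibody libraries and from 77.3 to 515 in IgG2b libraries, and F5 from 7.84 to 265 in CD8a antibody libraries and from 23.6 to 158 in IgG2b libraries. Sostdc1 ran from 22.5 to 271 in CD8a antibody libraries and from 36.5 to 166 in IgG2b libraries. CD8a antibody replicate 3 was the highest library for 10 of the 10 genes. Replicate 5 was the lowest for 9, with IgG2b replicate 5 lowest for Aqp1.

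No choroid plexus gene passed the test between antibody and isotype control. limma called 0 of the 10 at an adjusted p under 0.05, where it called 0.00717% of 13939 genes, and 0 of the 10 at an unadjusted p under 0.05, where it called 8.47%. None had groups that did not overlap, against 2.05% of all genes. The log2 difference, CD8a antibody minus IgG2b, was 0.72 for Ttr (95% interval -1.47 to 2.92) and 0.26 for Kl (-0.65 to 1.17). Kcne2 and Aqp1 had the largest, 1.01 and 0.98. All 10 lay above 0, where 49.6% of all genes did, with a median of 0.48 against -0.0020 over all genes. The smallest adjusted p was 0.808 with limma, 0.744 with DESeq2 and 0.669 with edgeR. Over all genes DESeq2 called 0.656% of 14024 and edgeR 0.00719%, and neither called any of these 10, also at an unadjusted p under 0.05, which 8.19% and 8.92% of all genes reached. The median of the 10 was reached or passed by 4.81% of all genes. That share, too, takes no account of spread, with a median SD within groups of 1.63 log2 units for the 10 against 0.26 over all tested genes. Again the median depended on single libraries. It was 0.090 without CD8a antibody replicate 3, with 6 of 10 above 0, and 0.24 without CD8a antibody replicate 2. It was 0.32 without CD8a antibody replicate 1, 0.84 without replicate 4 and 1.21 without replicate 5, and 0.97 without IgG2b replicate 1. Fitted to whole reads it was 0.87 with edgeR and with DESeq2. CD8a antibody replicate 5 is the library that stood apart over all tested genes. Without it, limma gave an unadjusted p of 0.033 for F5, 0.039 for Otx2 and 0.046 for Clic6. The other genes of the 10 were above 0.05, and the smallest adjusted p was 0.33. The share of all genes with an unadjusted p under 0.05 in that fit was not counted.

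The 10 genes varied between libraries of a group more than most genes did. In the transfer experiment their SD within groups, on the log2(normalized count + 1) scale, ran from 0.79 for Kl to 1.94 for Ttr with a median of 1.58, against a median of 0.22 over all tested genes. Of the 10, 9 were among the 141 genes with the highest 1% of SDs, and Kl ranked 498 of 14162. In the depletion experiment, over both of its groups, the SD ran from 0.88 for Kl to 2.24 for Kcne2. Its median was 1.63, against 0.26 over all tested genes. Again 9 of the 10 were among the 1% with the highest SDs (139 genes), and Kl ranked 296 of 13939. These ranks are a description of the 2 data sets and carry no test.

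**Figure D2:**
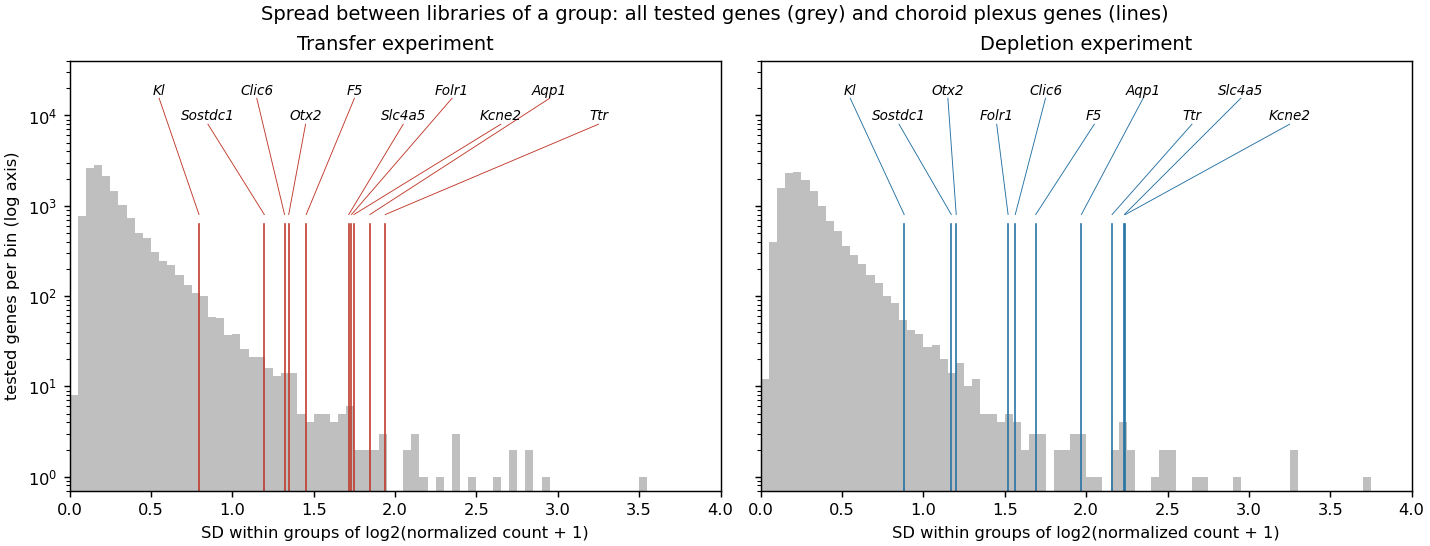
Distribution over all tested genes (grey, log axis) of the SD within groups of log2(normalized count + 1), with a line for each of the 10 genes. The 10 genes lie in the right tail of both distributions, Kl at the lowest SD of them with 0.79 in the transfer and 0.88 in the depletion experiment.

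Within groups the 10 genes went up and down together. In the transfer experiment each gene was set against the mean of the other 9 over 11 libraries, after subtraction of group means. Pearson's r ran from 0.939 for Otx2 to 0.992 for Sostdc1, and Spearman's rho from 0.955 to 0.991. For all 10 the permutation test within groups passed (100000 permutations, adjusted p of 0.000151 to 0.000634 for r and 0.000297 to 0.000757 for rho, adjusted over the 17 relations computed). The 10 relations share most of their genes, and the genes were chosen with earlier results of these data known. These p-values are therefore a description and no independent support. Without the 2 libraries farthest from the median, r was 0.924 to 0.988. The relation for Kl had r = 0.955, and r = 0.947 without the 2 farthest libraries. The depletion libraries formed separate clusters, so correlations over them are not reported, and the order of the libraries given above describes their agreement.

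Kl did not follow Ttr in proportion. For every 100 normalized counts of Ttr there were 3.71, 4.93, 17.3, 29.4 and 2.39 of Kl in aged T replicates 1 to 5, and 4.27 to 20.1 in young T libraries. The corresponding values were 3.77, 2.98, 3.77, 22.2 and 29.0 with the CD8a antibody, against 3.50, 9.87, 18.1, 12.4 and 17.4 with IgG2b. In both experiments the ratio was highest in a library where Ttr was lowest. A ratio to Ttr carries the counting and sampling spread of Ttr itself, so it is given as a description. Ttr had at least 603 reads in every library. Kl was also set against the mean log2 value of the other genes described here, centred per experiment. It departed by -0.76, -0.73, 0.62, 1.38 and -0.88 log2 units in aged T replicates 1 to 5. In young T libraries the range was -0.71 to 0.94. The departures were -0.59, -1.14, -0.94, 0.57 and 1.24 with the CD8a antibody. With IgG2b they were -0.84, -0.0094, 0.36, 0.55 and 0.80. The cause was not tested.

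**Figure D3:**
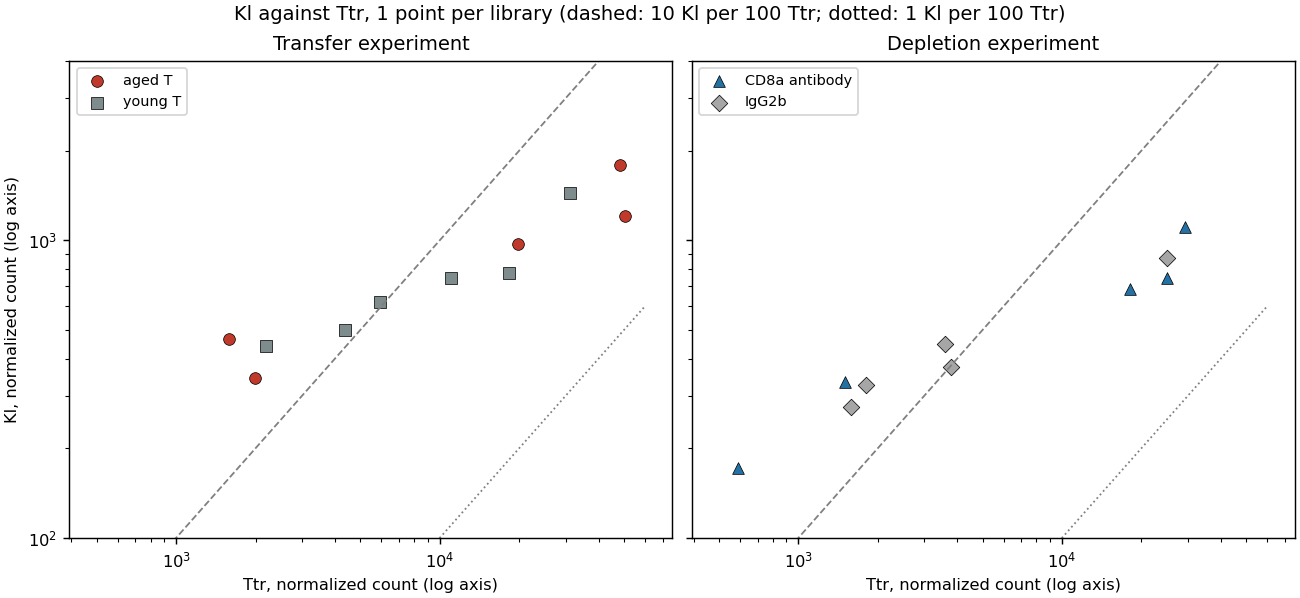
Kl against Ttr, both as normalized counts on log axes, with 1 point per library in the transfer (left) and depletion (right) experiment. Points run along a slope flatter than the dashed line of 10 Kl per 100 Ttr; the depletion libraries form a cluster at 18119 Ttr or more and another at 3785 or less.

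Most other listed genes of choroid plexus epithelium moved with these 10. Of a list of 26 such genes that are not among the 10, 25 were in the tables and tested in the transfer experiment, where their mean followed the mean of the 10 with r = 0.993 and rho = 0.982 over the 11 libraries. This list, too, was chosen with earlier results of these data known. The summed level of its genes ran from 5153 to 30667 normalized counts in aged T libraries and from 6650.2 to 23728 in young T libraries. Of the 25, 22 lay higher in aged T libraries with a median log2 difference of 0.31, and limma called 0 of them at an adjusted or an unadjusted p under 0.05. Between antibody and isotype, 23 of 24 lay higher with the antibody with a median of 0.60, 2 of them at an unadjusted p under 0.05. A share of 8.47% of all genes had such a p in that fit, so 2 of 24 is near the background. The 2 were Slc29a4, a monoamine transporter (300.0 ± 83.5 with the CD8a antibody and 197 ± 48.1 with IgG2b, limma adjusted p = 0.429), and Igfbp2, an insulin-like growth factor binding protein (627 ± 243 with the CD8a antibody and 396 ± 166 with IgG2b, limma adjusted p = 0.555).

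Over the 11 transfer libraries, centred on their group means, 33 of 13854 genes had r of at least 0.9 with the mean of the 10. Of these 33, 17 were in that list, and 20 of its 24 genes tested in both experiments were among the first 100. The listed genes outside the first 100 were Car12 (r = 0.774), Slc29a4 (0.761), Slc39a4 (0.668) and Slc13a4 (0.616). The most alike in these libraries were 1500015O10Rik (r = 0.988), Mfrp, a membrane frizzled-related protein (0.986), Kcnj13, an inward rectifier potassium channel (0.985), Enpp2, the enzyme autotaxin (0.984), and Tmem72, a transmembrane protein (0.978). Cldn2, a tight junction claudin, had r = 0.973. Genes outside the list included Slc2a12, a glucose transporter (0.970), Col9a3, a collagen chain (0.956), and Rbm47, an RNA-binding protein (0.915). They were picked by their likeness over all 21 libraries. Further genes outside the list also had r of at least 0.9 in the transfer libraries and are not named. With Kl alone, r was highest for Slc2a12 (0.958), Enpp2 (0.957) and Mfrp (0.952), and it was 0.938 for Krt18, a keratin. These values are a description and carry no test.

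Taking that list as a covariate gave narrower intervals and differences mostly below 0. With its mean in the model, the log2 differences in the transfer experiment ran from -0.64 to -0.018, all 10 below 0, and intervals were 0.606 to 1.15 wide. None passed with limma (adjusted p of 0.762 to 0.987). Kl was at -0.065 (95% interval -0.37 to 0.24) and Ttr at -0.32 (-0.79 to 0.15). F5 was at -0.64 (-1.11 to -0.17) and was the 1 gene of the 10 with an unadjusted p under 0.05, which 6.16% of all genes had in that fit. For the antibody they ran from -0.69 to 0.039, 9 of 10 below 0. Kl was at -0.17 (-0.45 to 0.11), Ttr at -0.36 (-0.71 to -0.0062) and Slc4a5 at -0.69 (-1.29 to -0.096). Ttr and Slc4a5 had an unadjusted p under 0.05 there, 2 of the 10 genes, where 10.3% of all genes did in that fit, and none of the 10 passed with limma (smallest adjusted p = 0.423). The covariate is made of genes of the same tissue, so these fits compare each gene with its neighbours in that tissue and not with the hippocampus.

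**Figure D4:**
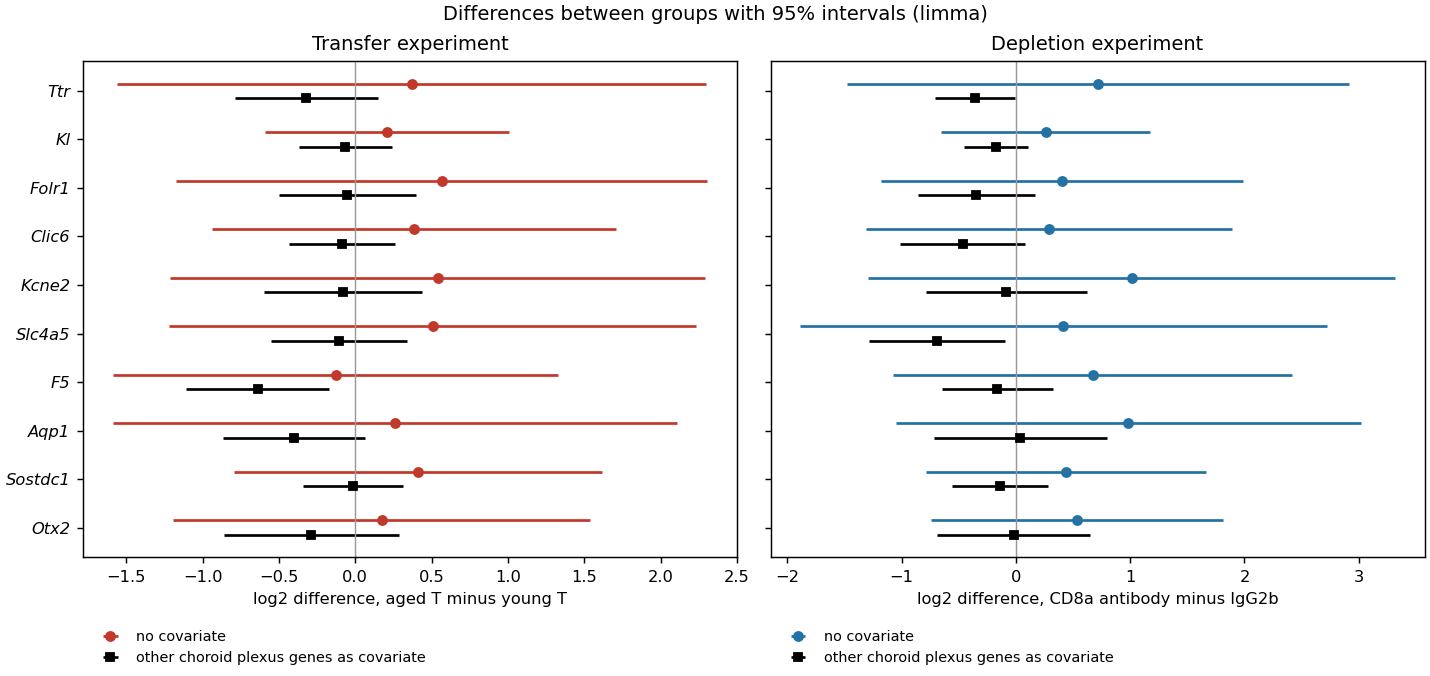
Log2 differences with 95% intervals from limma, aged T minus young T (left) and CD8a antibody minus IgG2b (right), without a covariate (coloured) and with the mean of the other choroid plexus genes as covariate (black). Without the covariate all intervals include 0; with it they are narrower and 19 of 20 values lie below 0.

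Ependymal cells, the ciliated lining of the ventricles, had a summed level of 490 to 1357 normalized counts over 16 markers in aged T libraries and 404 to 847 in young T libraries. Of these 16, 15 lay higher in aged T libraries with a median of 0.61. With limma, 8.25% of all genes had an unadjusted p under 0.05, and 5 of the 16 markers did, all higher. None of the 16 had an adjusted p under 0.05. Their mean followed that of the 10 choroid plexus genes with r = 0.47 and rho = 0.37 over 11 libraries, and r = 0.21 without the 2 farthest. With the ependymal mean as covariate, all 10 choroid plexus genes lay below 0 in the transfer experiment (-0.89 to -0.15), and 2 of 10 did in the depletion experiment (-0.19 to 0.83). The ependymal sum was 287 to 991 in CD8a antibody libraries and 369 to 759 in IgG2b libraries, and 14 of 14 tested markers lay higher with the antibody. Of these 14, 2 had an unadjusted p under 0.05 with limma, where 8.47% of all genes did in that fit. The part of the ependymal markers in the differences of the choroid plexus genes beyond these fits was not tested.

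The stroma of the choroid plexus and the meninges hold fibroblasts, and 14 of 14 fibroblast markers lay lower in aged T libraries, with a median of -0.70. Their sum was 1511 to 4859 normalized counts in aged T libraries and 1682 to 8390.1 in young T libraries, and their mean had r = 0.028 and rho = 0.15 with that of the 10 genes. Of the same markers, 13 of 14 lay higher with the antibody (median 0.35), with sums of 1331 to 3531 against 1624 to 2635 with IgG2b. The exception was Dcn, a small proteoglycan, at 351 ± 151 with the CD8a antibody and 803 ± 128 with IgG2b (log2 difference -1.30, limma adjusted p = 0.175, DESeq2 adjusted p = 0.00185). Border macrophage markers summed to 51.6 to 174 in aged T libraries and 47.3 to 260.3 in young T libraries, with 3 of 7 genes above the test's minimum, and each of the 7 had reads in all 4 groups. They summed to 33.5 to 131 in CD8a antibody libraries and 85.5 to 123 in IgG2b libraries. Plvap, a marker of fenestrated endothelium, had 115 ± 27.0 normalized counts in aged T libraries and 95.7 ± 28.5 in young T libraries. It had 120 ± 27.7 with the CD8a antibody and 105 ± 29.9 with IgG2b. Its highest depletion log2 value, 7.38, was in CD8a antibody replicate 5, where the mean of the 10 genes was lowest (4.16). Hippocampal neuron markers had r = -0.018 and rho = -0.10 with the choroid plexus genes in the transfer experiment. The thalamus and striatum lists had r of 0.42 and 0.31 there, and 0.0045 and -0.15 without the 2 farthest libraries. Between antibody and isotype, 5 of 6 thalamus markers lay higher with the antibody, with a median log2 difference of 0.53 beside 0.48 for the choroid plexus genes. Their sum was 553 to 2074 in CD8a antibody libraries and 768 to 990.1 in IgG2b libraries. All 6 striatum markers lay higher (median 0.21), with sums of 1372 to 2120.4 in CD8a antibody libraries and 1119 to 1746 in IgG2b libraries. Of the hippocampal neuron markers, 7 of 8 lay higher (median 0.28), with sums of 5384 to 9989 in CD8a antibody libraries and 6699.5 to 8714 in IgG2b libraries. limma called none of these markers at an adjusted p under 0.05. In its transfer fit 8.25% of all genes had an unadjusted p under 0.05. There 4 of 14 fibroblast markers did, all lower, and 1 of 6 striatum markers did. In its depletion fit 8.47% of all genes had such a p. There 3 of 8 hippocampal neuron markers did (2 higher, 1 lower), and 2 of 14 fibroblast markers (1 higher, 1 lower). No thalamus marker did in either fit. The part of these tissues in the result was not tested.

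**Figure D5:**
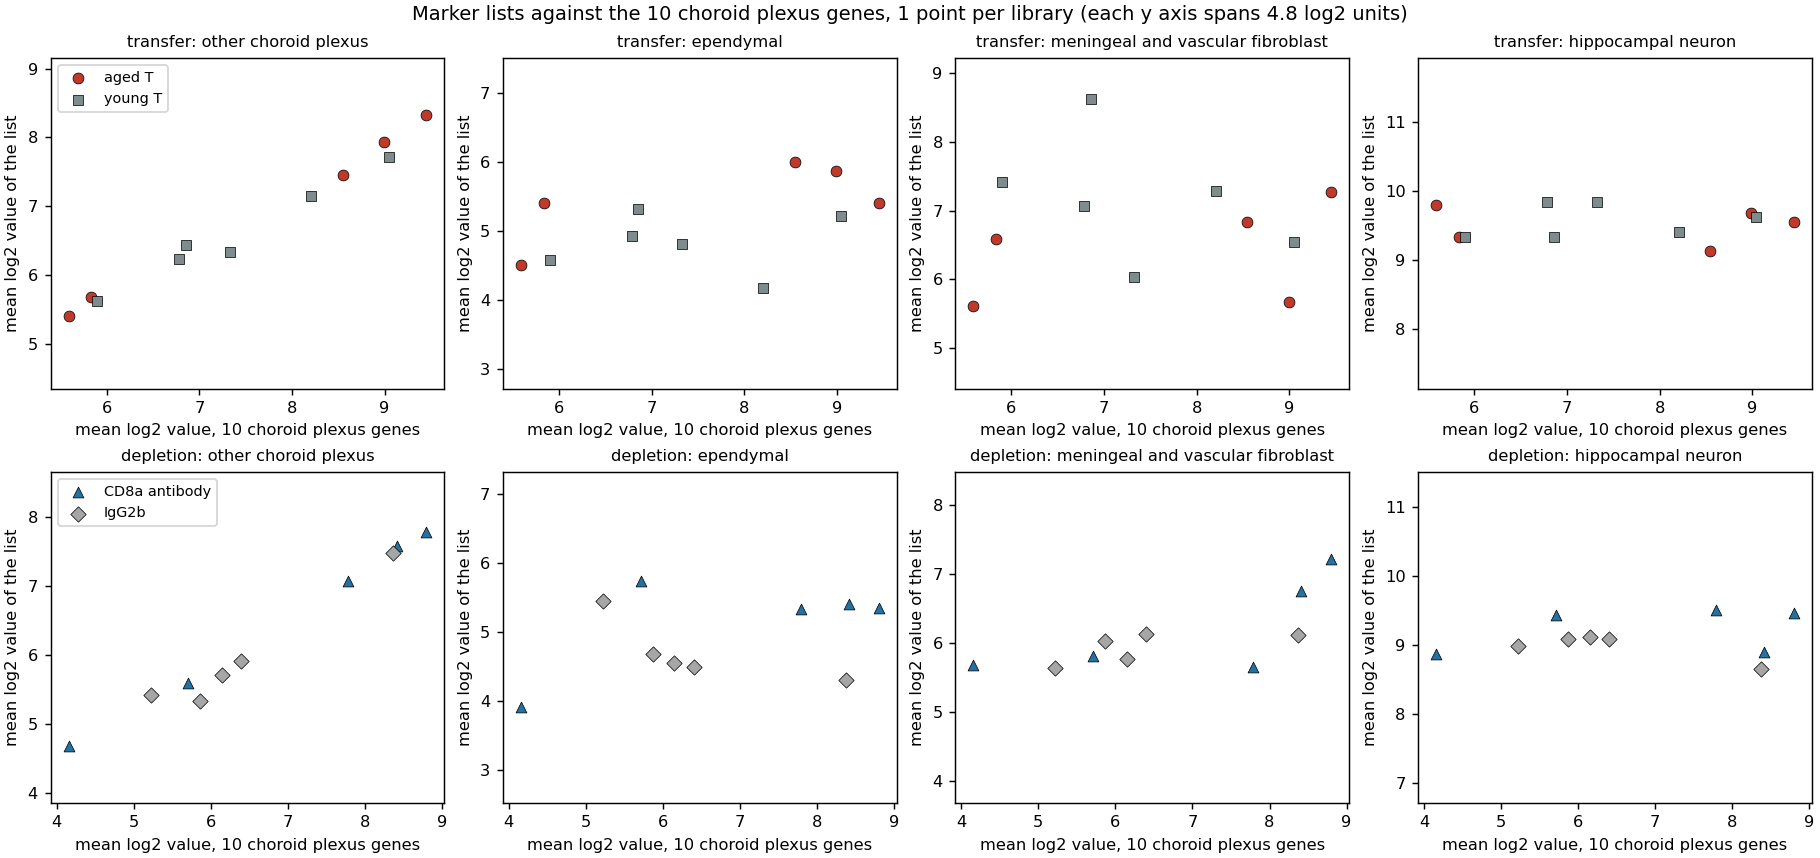
Mean log2 value of 4 marker lists against the mean of the 10 choroid plexus genes, 1 point per library, with the transfer experiment above and the depletion experiment below. The other choroid plexus genes lie along a line, with r = 0.993 in the transfer experiment. The ependymal, fibroblast and hippocampal neuron lists follow the 10 genes less closely, with r of 0.47, 0.028 and -0.018 there. Hippocampal neuron values lie in a narrow band (9.12 to 9.79 in aged T libraries and 9.33 to 9.84 in young T libraries).

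The pathways in which the 10 genes act were measured too, and many of their members are also made by other brain cells. Of 16 genes of klotho and FGF23 signalling, 8 were tested in each experiment, and 0 passed in either direction with limma or DESeq2. In the transfer experiment 3 of the 8 lay higher, with a median of -0.060, and in the depletion experiment 5 did, with a median of 0.015. The receptor Fgfr1, with which klotho binds FGF23, differed by 0.0092 log2 units between aged T and young T libraries (95% interval -0.20 to 0.22) and by 0.0019 between antibody and isotype (-0.31 to 0.32). Adam10 and Adam17, proteases that shed klotho, were at -0.068 and -0.15 in the transfer and at -0.12 and 0.29 in the depletion experiment. Bace1, another sheddase of klotho, had 944 ± 137 normalized counts with the CD8a antibody and 1132 ± 26.3 with IgG2b (limma adjusted p = 0.507).

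Of 12 genes that carry, activate or bind thyroid hormone and retinol, the cargo of transthyretin, 6 lay higher in aged T libraries and 7 with the antibody, and none passed with limma. DESeq2 called 1 of them lower with the antibody, Dio3, the enzyme that inactivates thyroid hormone, at 31.0 ± 23.0 with the CD8a antibody and 84.3 ± 22.6 with IgG2b (adjusted p = 0.0492, limma adjusted p = 0.252). Of 12 tested genes of ion and water transport into cerebrospinal fluid, 6 and 7 lay higher and none passed with limma or DESeq2. The carbonic anhydrase Car2 was at 2918 ± 390.4 in aged T libraries and 2404 ± 236 in young T libraries (limma adjusted p = 0.6002), and at 3202 ± 443 with the CD8a antibody and 2418 ± 361 with IgG2b (limma adjusted p = 0.371). Of 5 tested folate genes, 4 and 3 lay higher and none passed. Among BMP and Wnt genes, 1 of 10 lay higher in aged T libraries (median -0.097) and 5 of 9 with the antibody (median 0.053). DESeq2 called Rspo3, a secreted amplifier of Wnt signals, lower with the antibody, at 152 ± 28.7 with the CD8a antibody and 233 ± 26.4 with IgG2b (adjusted p = 0.0307, limma adjusted p = 0.252).

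Promoters of the 10 genes were searched for motifs of 2 transcription factors of this epithelium, OTX2 and FOXJ1. That the genes moved together does not show a shared regulator, which was not tested. RefSeq's table (GRCm38.p6) held 6 of the 10 genes with 10 start sites in all, and Ttr, Folr1, Clic6 and Sostdc1 are named only. The 250 bases before each start were searched on both strands for the OTX2 core TAATCC and the FOXJ1 core GTAAACA, which do not overlap each other. The OTX2 core was in 1 of 10 windows, at position -211 from a start site of Otx2 itself, against 6.25% of 32851 windows of that length. The FOXJ1 core was in 0 of 10, against 3.17%. The stretch around the match is shown, at chr14:48665303-48665332 on the minus strand, in capitals where it reads as the reverse complement of TAATCC. It lies in an annotated exon of other Otx2 transcripts. The windows of Kl (chr5:150952357-150952606, plus strand, 66.8% G and C) and Kcne2 (chr16:92292139-92292388, plus strand, 52.4% G and C) are shown as the genes with the narrowest range and one of the widest, and neither holds a match. A match is only a run of letters, and none of these data measure binding.
Otx2: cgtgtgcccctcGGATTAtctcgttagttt
Kl: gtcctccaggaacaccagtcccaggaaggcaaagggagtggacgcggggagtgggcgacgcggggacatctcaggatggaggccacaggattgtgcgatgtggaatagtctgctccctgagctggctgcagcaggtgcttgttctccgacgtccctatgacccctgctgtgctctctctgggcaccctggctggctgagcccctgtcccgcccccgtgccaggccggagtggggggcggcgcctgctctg
Kcne2: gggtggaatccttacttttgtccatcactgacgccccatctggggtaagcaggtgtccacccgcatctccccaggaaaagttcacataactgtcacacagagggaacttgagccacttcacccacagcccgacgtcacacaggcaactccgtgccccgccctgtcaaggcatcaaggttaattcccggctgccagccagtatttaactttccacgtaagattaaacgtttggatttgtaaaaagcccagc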

How the data were processed

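Hippocampal RNA was measured in 21 libraries in 2 experiments. The submitters' processing notes name STAR, RSEM, DESeq2 and the mm10 build, without versions or roles. The 2 tables deposited by the authors give, per the file headers, a normalized signal per gene and library and a DESeq2 comparison with log2 fold change and p-values, signed control over treated. The deposited Wald score of that comparison was not used. Every value was a whole multiple of 1 step per library (100%, relative tolerance 1e-06), so whole reads were recovered for edgeR and DESeq2. Because the values are normalized, limma was the main test. limma-trend (limma 3.58.1, R 4.3.3) was run per experiment on log2(normalized count + 1) over genes with a mean of at least 10, with Benjamini-Hochberg adjustment over all of them and calls at an adjusted p under 0.05. This scale understates differences of low genes. edgeR 4.0.16 and DESeq2 1.42.0, other pseudocounts and filters, TMM scaling, 2 covariates and leaving out each library were alternatives. Replicates are numbered by sample record within a group and pair no samples.

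The 10 genes and the lists were chosen with earlier results of these data known. From each list, the 2 tested genes with the smallest p were eligible to be named, besides genes called by limma or DESeq2. The 10 genes most like the mean of the 10, and the 5 most like Kl, over all 21 libraries, were eligible too, and their likeness is given over the transfer libraries, an alternative chosen after seeing the data. Fgfr1 and Adam10 were named for their role, with their values known. Car12, Slc39a4 and Slc13a4 were named for their low likeness, also with their values known. Read totals limit precision by counting error only. The fits were tested on simulated counts with the same small dispersion set for every gene. The wide spread of these 10 genes was not simulated, so that test does not cover them.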

Additional observations from a re-analysis of the deposited data

Results flagged for a closer look

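In 2 of 40 groups of values examined (10 genes in 4 groups), 1 library lay farther from the others of its group than Dixon's 95% limit allows on the log2 scale. In both it was the highest IgG2b library, replicate 1, with 126.9 normalized counts of Folr1 and 165.7 of Slc4a5. Chance alone marks about 1 group in 20. That library was among the 4 highest of the depletion experiment for all 10 genes.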

How the results depend on the processing

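Under pseudocounts of 0.5 and 5, no filter on the mean, a mean of at least 50, TMM scaling, edgeR, DESeq2, both covariates and leaving out each library, 0 of the 10 genes were called in either experiment. Otx2 was not tested in the depletion experiment at a mean of at least 50. The number of all genes called in the depletion experiment was 1; it was 0 with no filter on the mean, 92 with DESeq2, 3 with the choroid plexus covariate, 21 with the ependymal covariate, and 0 to 25 when 1 library was left out (25 without CD8a antibody replicate 5). With the choroid plexus covariate the log2 difference turned negative in the transfer experiment for Ttr (-0.32), Kl (-0.065), Folr1 (-0.053), Clic6 (-0.085), Kcne2 (-0.079), Slc4a5 (-0.11), Aqp1 (-0.40), Sostdc1 (-0.018) and Otx2 (-0.29). In the depletion experiment it did so for Ttr (-0.36), Kl (-0.17), Folr1 (-0.35), Clic6 (-0.47), Kcne2 (-0.083), Slc4a5 (-0.69), F5 (-0.16), Sostdc1 (-0.14) and Otx2 (-0.021). With the ependymal covariate it turned negative in the transfer experiment for Ttr (-0.68), Kl (-0.15), Folr1 (-0.30), Clic6 (-0.23), Kcne2 (-0.32), Slc4a5 (-0.48), Aqp1 (-0.85), Sostdc1 (-0.31) and Otx2 (-0.81), and in the depletion experiment for Folr1 (-0.099) and Clic6 (-0.19). The difference of F5 in the transfer experiment turned positive with edgeR (0.24) and DESeq2 (0.22). The cause was not tested.

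Leaving out 1 library at a time changed the sign of some differences. In the transfer experiment the range was -0.18 to 1.06 for Ttr, -0.078 to 0.51 for Kl, -0.065 to 0.91 for Clic6, -0.0060 to 1.11 for Slc4a5, -0.62 to 0.39 for F5, -0.28 to 0.91 for Aqp1 and -0.17 to 0.85 for Otx2. In the depletion experiment it was -0.024 to 0.65 for Kl, -0.041 to 1.11 for Folr1, -0.079 to 1.08 for Clic6 and -0.23 to 1.32 for Slc4a5. No paired analysis was possible because the sample titles share no replicate numbers between groups. Values of 2 to 4 reads for Slc4a5, Kcne2 and Aqp1 in single depletion libraries limit their ratios.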

Other observations

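T cell transcripts were too few to test. Over all libraries of a group, Cd8b1 had 0 reads in aged T libraries and 1 in young T libraries, and 9 with the CD8a antibody and 8 with IgG2b. Cd3e had 0 in aged T libraries and 7 in young T libraries, all 7 in 1 library, and 0 with the CD8a antibody and 1 with IgG2b. In the authors' deposited table, where a negative value means higher in the treated group, the log2 fold change was -1.01 for Ttr and -0.34 for Kl in the transfer experiment (DESeq2 adjusted p of 0.873 and 0.943), and -1.06 for Ttr and -0.41 for Kl in the depletion experiment (0.823 and 0.871).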
